A study of Drosophila melanogaster with 4 samples.

Results

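The regions described here are those enriched for H3K36me2, histone H3 dimethylated at lysine 36, on chromosome 4 of *Drosophila melanogaster*, on 6 heterochromatin scaffolds (2LHet, 2RHet, 3LHet, 3RHet, XHet and YHet) and on U, a sequence that joins scaffolds with no assigned chromosome. They were chosen by sequence name alone. The authors' combined list holds 321 of them among 4311 regions in all, with 104 on chromosome 4, 127 on the Het scaffolds and 90 on U. The replicate lists hold 249 of 4133 regions (90, 105 and 54) and 260 of 4231 (100, 110 and 50). Chromatin came from wild-type Oregon-R embryos aged 14 to 16 hours and fixed in 1.8% formaldehyde, and was precipitated with an antibody the labels call H3K36me2 W in 2 ChIP samples. The series also has 2 input samples of the same strain, genotype and stage, whose files were not analysed here. All samples share that genotype and stage, and the sex of the embryos is not given. The comparisons are therefore between sequences, with the 5 large arms (2L, 2R, 3L, 3R and X) as a further group in many of them. The labels do not state whether each replicate used its own collection of embryos, and the differences between replicates may therefore be technical only.

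H3K36me2 is laid down in flies by the methyltransferases Mes-4 and Ash1, while Set2 adds the trimethyl mark along transcribed genes. Chromosome 4, the smallest *Drosophila* chromosome, is unusual in that its genes are transcribed although much of it carries the heterochromatin protein HP1a together with POF, a protein that binds this chromosome. The Het scaffolds hold pericentromeric sequence (for YHet, part of the Y chromosome), which is rich in transposons and repeats and contains a limited number of genes. Repeats keep short reads from mapping to a single place, so the length of these scaffolds that reads could cover is less than the length used for the percentages here, by an amount that was not measured.

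Regions on chromosome 4 were dense and lay along its whole length, whereas those on the Het scaffolds came in groups separated by long empty stretches and those on U were mostly alone. Chromosome 4, of 1.35 Mb, carried 70.3 ± 5.23 regions per megabase, the Het scaffolds, of 9.28 Mb, 11.6 ± 0.381, U, of 10.0 Mb, 5.17 ± 0.281, and the large arms 33.0 ± 0.517 (SD, n = 2 each). With 2 replicates an exact two-sided sign-flip permutation test cannot give p below 0.5, and neighbouring regions are not replicates, so no p-value is given for any of these comparisons. The bases covered were 514 and 470 kb of chromosome 4 in replicates 1 and 2, 592 and 573 kb of the Het scaffolds, and 127 and 117 kb of U. Chromosome 4 thus held fewer covered bases than the Het scaffolds together, but its covered share of length was 5.96 times theirs in replicate 1 and 5.63 times in replicate 2. The shares were 38.0% and 34.8% on chromosome 4, 6.38% and 6.17% on the Het scaffolds, and 1.27% and 1.16% on U. The large arms lay between, at 22.5% and 21.9%. Measured only over the span from the first to the last region of each sequence, which leaves out empty ends, the ratio of chromosome 4 to the Het scaffolds averaged 4.45.

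The gap from a region to the next had a median of 2797 bp in replicate 1 and 2482 bp in replicate 2 on chromosome 4, 6535 and 4384.5 bp on the Het scaffolds, 84795 and 93004 bp on U, and 5046 and 4777 bp on the large arms. The Het scaffolds and the large arms overlap in this median when both replicates are taken into account, but their mean gaps do not. Mean gaps were 8692 ± 527 bp on chromosome 4, 62227 ± 2207 bp on the Het scaffolds, 171212 ± 9636 bp on U and 23558 ± 240.03 bp on the large arms (SD, n = 2 each). The mean was 3.296 ± 0.0785 times the median on chromosome 4, 11.8 ± 2.88 times on the Het scaffolds, 1.93 ± 0.0174 times on U and 4.799 ± 0.137 times on the large arms (SD, n = 2 each). Gaps over 50 kb were 5 of 89 and 5 of 99 on chromosome 4, against 22 of 99 and 22 of 104 on the Het scaffolds, 31 of 53 and 33 of 49 on U, and 528 of 3879 and 529 of 3966 on the large arms. A gap on U may run from one unplaced scaffold to another, so its length is not a distance along a chromosome. Whether each Het sequence is unbroken was not checked, so gaps, groups and positions there may likewise not be distances along a chromosome.

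**Figure D1:**
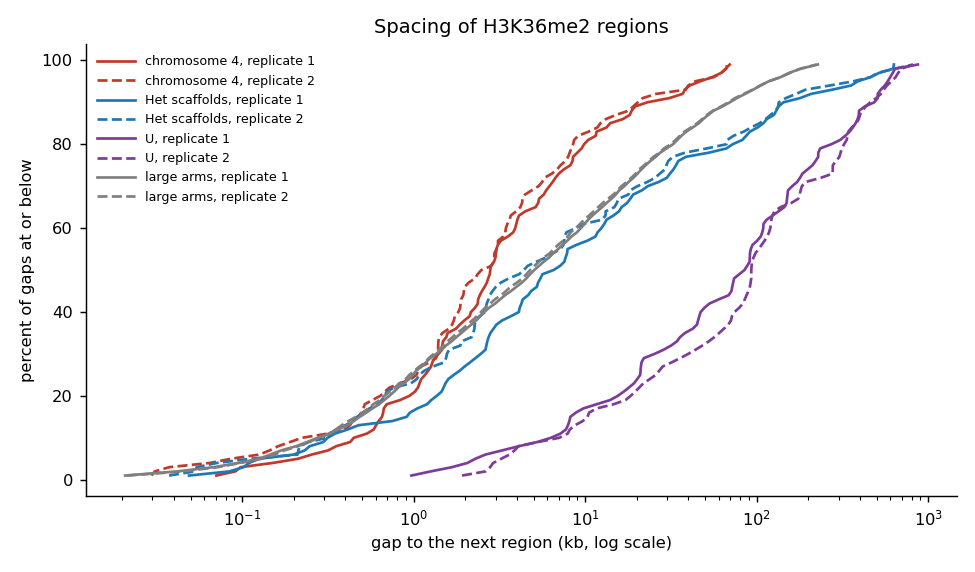
Cumulative percent of gaps (vertical axis) at or below a given length in kb (horizontal axis, log scale), for chromosome 4, the Het scaffolds, U and the large arms, with replicate 1 solid and replicate 2 dashed. The median gap was 2797 and 2482 bp on chromosome 4, and the Het scaffold curves, with medians of 6535 and 4384.5 bp, end at longer gaps than those of the large arms.

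The longest empty stretches of chromosome 4 in the combined list were 4:715911-797111, of 81.2 kb, 4:806561-873271, of 66.7 kb, and 4:396249-456219, of 60.0 kb. No region of either replicate lay in them. Between the first pair stood 2 regions in replicate 1 and 3 in replicate 2, which ran from 797761 to 806484 in replicate 2. Stretches on the Het scaffolds were longer, at 886 kb for 3RHet:791963-1678305, 622 kb for 2RHet:1641343-2263779 and 456 kb for 2RHet:835087-1291057, again with no region in either replicate. On U the longest were U:4017761-4659847, of 642 kb, U:1207677-1848691, of 641 kb, and U:3450409-4015337, of 565 kb. A replicate 2 region reached into the edge of the first, over 0.0118% of it. The combined list was made over the same replicates, so their lack of regions in these stretches is not an independent check.

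Joining close regions separated chromosome 4 from the Het scaffolds at distances above 1 kb. When regions less than 1 kb apart were joined, chromosome 4 had 71 domains in replicate 1 and 76 in replicate 2, with medians of 4967 and 4760 bp. The Het scaffolds gave 88 and 86 domains, with medians of 3881 and 3677 bp, and U 53 and 50. Regions per domain were then similar, 1.29 ± 0.0341 on chromosome 4 and 1.24 ± 0.0607 on the Het scaffolds (SD, n = 2 each), a difference within the spread between replicates. At 2 kb 62.2% and 54.0% of the regions of chromosome 4 were left as domains, against 74.3% and 68.2% on the Het scaffolds. At 5 kb, 33 and 32 domains were left on chromosome 4, which is 36.7% and 32.0% of its regions, against 57.1% and 50.9% on the Het scaffolds, 49 of 54 and 45 of 50 domains on U, and 50.2% and 49.2% on the large arms. At 10 kb chromosome 4 kept 18 domains in each replicate, with median widths of 29990 and 29396.5 bp, while the Het scaffolds kept 49 and 46, with medians of 7686 and 7115.5 bp. Isolated regions, with no neighbour within 10 kb on either side, numbered 2 of 90 and 2 of 100 on chromosome 4. They were 26 of 105 and 19 of 110 on the Het scaffolds, 37 of 54 and 37 of 50 on U, and 16.0% and 15.1% of the regions of the large arms. The isolated Het regions were narrower than the others, with median widths of 2633 and 2597 bp against 3537 and 3271 bp.

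**Figure D2:**
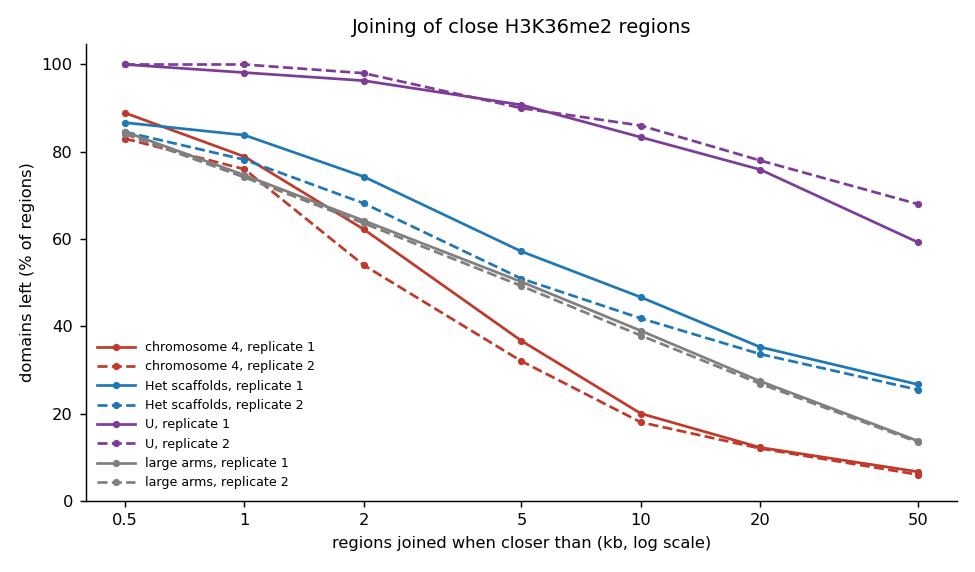
Domains left as a percent of the regions (vertical axis) after joining regions closer than the distance on the horizontal axis (kb, log scale), for each group of sequences, with replicate 1 solid and replicate 2 dashed. At 10 kb 20.0% and 18.0% were left on chromosome 4, 46.7% and 41.8% on the Het scaffolds, 83.3% and 86.0% on U, and 39.0% and 37.9% on the large arms.

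With a joining distance of 50 kb, the regions of chromosome 4 formed 6 groups in each replicate, and the groups of the replicates matched in place. The first ran from 25496 to 243007 in replicate 1 and from 28155 to 241467 in replicate 2, with 59.9% and 56.3% of its length inside regions. Another spanned 456230 to 715888 in replicate 1 and 457777 to 715625 in replicate 2, filled to 50.1% and 48.0%. The last was the widest, 316.7 kb with 26 regions in replicate 1 and 286.8 kb with 26 regions in replicate 2. Its end differed between the lists, since the final region of replicate 1 ended at 1346031 and that of replicate 2 at 1321590. In the last 51857 bp of the chromosome regions covered 11.04% in replicate 1, 3.47% in replicate 2 and 29.0% in the combined list.

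On the 6 Het scaffolds the same joining left 28 groups in each replicate, single regions included, and how full they were varied. The longest on 2RHet lay at 3116505-3280527 in replicate 1 and 3116413-3280413 in replicate 2, 164.0 kb in each, and held 38.7% and 39.8% of the covered bases of that scaffold. Its 13 and 15 regions filled it to 57.7% and 56.1%, a density like that of the chromosome 4 groups. 3LHet had a group of 158.6 and 158.4 kb that ended at 2545298 and 2544749, with 34.2% and 38.0% of the scaffold's covered bases, and another at 1273274-1395543 in replicate 1 and 1273505-1395414 in replicate 2. The regions of XHet formed a single group of 30.5 and 28.9 kb, filled to 92.7% and 89.5%. The replicate regions of YHet also formed a single group, of 46.9 kb in each list, filled to 39.7% and 30.0%.

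Position along the sequence differed accordingly. Cut into 10 equal parts, chromosome 4 was covered in every part, from 26.0% to 54.7% in replicate 1 and from 23.6% to 49.5% in replicate 2, with the highest value in the first part in each. U too was covered in every part, but only from 0.174% to 3.12% in replicate 1 and from 0.141% to 2.95% in replicate 2. All 14 windows of 100 kb on chromosome 4, the last one shorter, held regions in both replicates. By contrast 18 of 33 windows of 2RHet, 11 of 26 of 3LHet and 18 of 26 of 3RHet were empty in both. On 2RHet the last part was covered to 28.8% and 28.0% and the seventh to 0.680% and 0.437%, with the first at 14.1% and 14.4%. The last part of 3LHet was covered to 26.8% and 29.1%, and the sixth to 20.98% and 19.6%. 3RHet was covered mainly in its eighth part, at 15.8% and 16.5%, and 2LHet in its first, at 48.9% and 50.2%. Parts are counted from the lower coordinate, and which end of a scaffold faces the centromere was not used. Parts and windows were not computed for the large arms. The lower-coordinate 50% of the length held 55.0% and 55.8% of the covered bases of chromosome 4, against 32.1% and 30.8% on the Het scaffolds. On U it held 25.1% and 28.1%, and on the large arms 52.7% in each replicate. Among scaffolds that share ranged from 0% on YHet to 100% on 2LHet and XHet, so the pooled value describes no single scaffold.

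**Figure D3:**
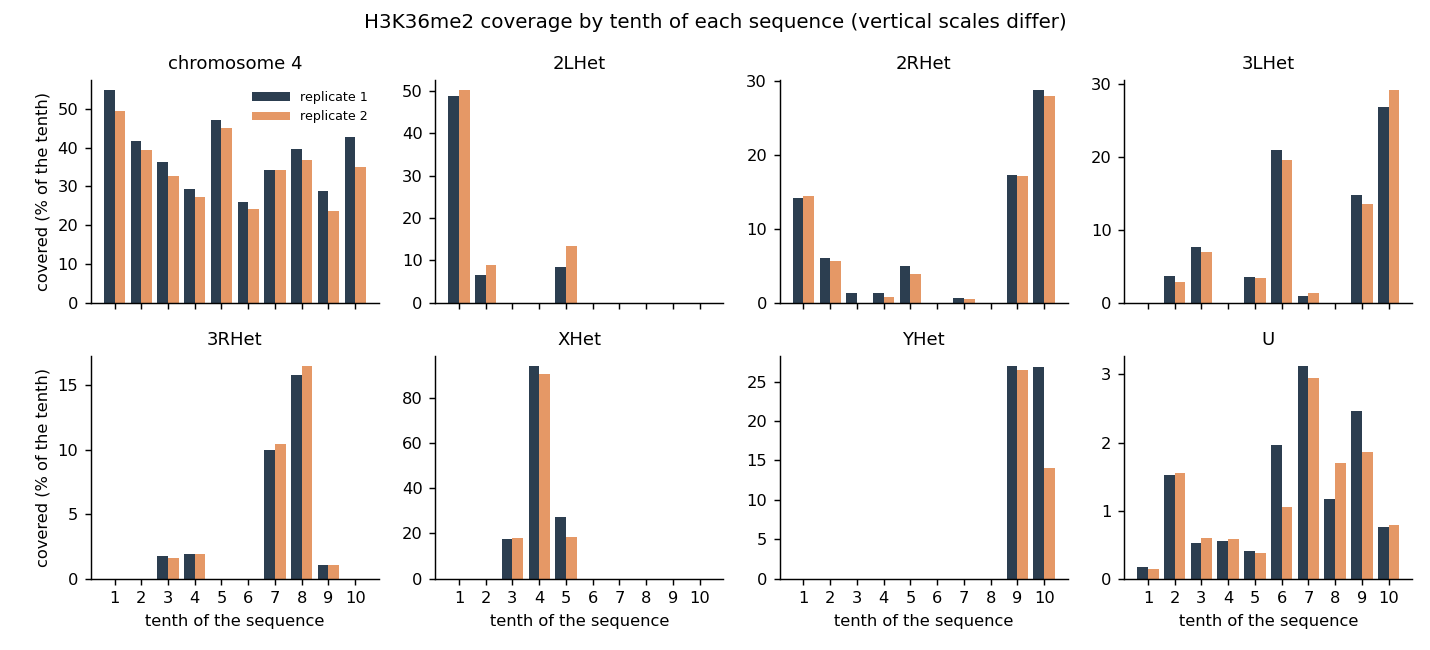
Percent of each of 10 equal parts of a sequence that lies in regions (vertical axis, scales differ between panels), with parts 1 to 10 counted from the lower coordinate (horizontal axis), with replicate 1 dark and replicate 2 light. Chromosome 4 is covered in all 10 parts, at 23.6% or more, and so is U, but only at 0.141% to 3.12%. Each Het scaffold has parts with no region in either replicate.

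Region widths were mixed. Median widths were 4623.5 and 3462.5 bp in replicates 1 and 2 on chromosome 4, 3283 and 3154 bp on the Het scaffolds, 2033 and 2014 bp on U, and 5085.5 and 4742 bp on the large arms. The replicates of chromosome 4 lay further apart than its replicate 2 lay from the Het scaffolds. Very wide regions were a smaller part of chromosome 4 than of the Het scaffolds. Regions of 10 kb or more were 9.56% ± 2.20 of the regions of chromosome 4, 15.8% ± 0.520 on the Het scaffolds, 1.93% ± 0.105 on U and 19.9% ± 1.23 on the large arms (SD, n = 2 each). They held 26.6% ± 5.35 of the bases in regions on chromosome 4, against 49.0% ± 1.66 on the Het scaffolds and 46.7% ± 1.75 on the large arms (SD, n = 2 each). Coverage of chromosome 4 was thus made up more of regions under 10 kb.

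The widest regions of the combined list were covered in the replicates but were often broken up. That list was made by the authors over the same replicates, so this overlap is not an independent check. On chromosome 4 the widest combined region was 4:40788-64008, of 23.2 kb, covered to 95.9% by 2 regions in replicate 1 and to 87.7% by 4 regions in replicate 2. The next, 4:110452-133466, was covered to 100% by a single region in replicate 1 and to 94.2% by 3 regions in replicate 2. It belongs, with 4:133764-150172, to the widest domain of the combined list on this chromosome, 4:101534-150172, of 48.6 kb in 5 regions. 4:1255396-1277126 was 2 regions in replicate 1 and 3 in replicate 2, and 4:541338-560426 was a single region in each, with scores of 1.79 and 1.74. The other wide domains of chromosome 4 were 4:1241084-1277126, of 36.04 kb, and 4:475168-503068, of 27.9 kb. On the Het scaffolds the widest were 2RHet:3140182-3179478, of 39.3 kb, and 2RHet:212784-247820, of 35.0 kb. Both were 1 region in replicate 1 and 2 regions in replicate 2, and their highest replicate scores were 2.07 and 2.13 for the first and 2.03 and 2.15 for the next. The remaining Het regions among the 5 widest were 3LHet:2241426-2271062, 2RHet:3198964-3220734 and 3LHet:2410064-2431324, of 29.6, 21.8 and 21.3 kb. The widest domains there were 2RHet:3136474-3179478, of 43.0 kb, 2RHet:212784-251322, of 38.5 kb, and the first of the 3LHet regions just named.

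The score that the authors gave each region, on a scale not stated in the sources used here, was lower on chromosome 4 than on the Het scaffolds once width was taken into account, and at equal width U was above the large arms. Without regard to width the medians of chromosome 4 and the Het scaffolds could not be told apart, the difference being 0.00851 in replicate 1 and -0.114 in replicate 2. Within 4 width classes, cut at 2.5, 5 and 10 kb, the mean difference, chromosome 4 minus Het scaffolds, was -0.150 in replicate 1 and -0.136 in replicate 2. It was -0.115 in the combined list. The difference of the Het scaffolds from the large arms was -0.0823 and -0.131, and that of U from the large arms was 0.180 and 0.360. Without regard to width U lay below the large arms, with medians of 0.900 and 1.04 against 1.32 and 1.30, a difference of -0.424 and -0.264.

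Chromosome 4 lay further below the large arms in the wider classes. Under 2.5 kb the median score was 0.501 and 0.526 on chromosome 4, against 0.568 and 0.600 on the large arms. From 2.5 to 5 kb it was 0.855 and 0.795, against 1.12 and 1.15. From 5 to 10 kb it was 1.11 and 1.12, against 1.53 and 1.55, and at 10 kb or more 1.40 and 1.35, against 1.84 and 1.82. For the Het scaffolds the same 4 medians were 0.560 and 0.542, 0.959 and 0.958, 1.27 and 1.32, and 1.86 and 1.71, so their widest class lay 0.0257 above the large arms in replicate 1 and 0.103 below in replicate 2. The widest class held 10 and 8 regions of chromosome 4 and 17 of the Het scaffolds in each replicate, a small number in each case. In the combined list, chromosome 4 under 2.5 kb lay above the large arms, at 0.439 against 0.413. Its wider classes lay below them there, by 0.381, 0.427 and 0.424 in order of width.

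**Figure D4:**
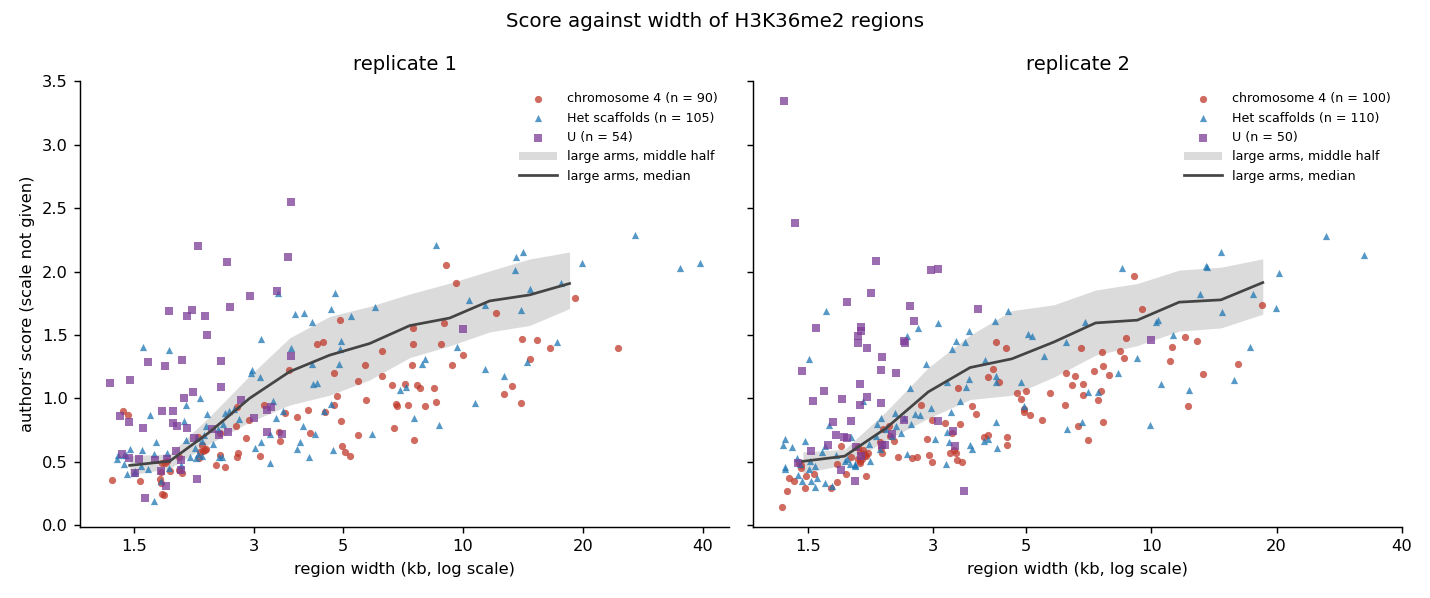
Authors' score (vertical axis) against region width in kb (horizontal axis, log scale) for every region of chromosome 4, the Het scaffolds and U in each replicate, over the median (line) and interquartile range (band) of the large-arm regions. Chromosome 4 points lie mostly below the line, with class medians of 1.40 and 1.35 at 10 kb or more against 1.84 and 1.82 on the large arms, and many U points lie above it.

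Each region was then ranked among the large-arm regions of the same list whose width was within 10% of its own. On chromosome 4, 77 of 90 regions in replicate 1 and 91 of 100 in replicate 2 scored below the median of these, and the median region stood at percentile 15.6 and 15.7. On the Het scaffolds 53 of 104 and 69 of 110 were below, with the median region at percentile 48.9 and 40.0. A further Het region of replicate 1 was too wide to have 10 large-arm regions of like width. On U 16 of 54 and 13 of 50 were below, with the median region at percentile 94.4 and 98.5. Ranks under percentile 10 were held by 31 and 35 regions of chromosome 4, 20 and 21 of the Het scaffolds and 4 and 3 of U. Ranks over percentile 90 were held by 2 and 0 regions of chromosome 4, 8 and 9 of the Het scaffolds and 28 and 33 of U, so the groups overlapped. In the combined list such ranks were held by 8 of 104 regions of chromosome 4, 15 of 126 Het regions and 49 of 90 of U.

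Of the 84 replicate 1 regions of chromosome 4 that overlapped a replicate 2 region, 5 scored above the large-arm median in both replicates. On the Het scaffolds 28 of 92 did, counting the region too wide to be ranked, and on U 27 of 41. This share was not computed for the large arms. The chromosome 4 set was defined with the scores in view. The highest was the region at 1193291-1202387 in replicate 1 and 1193322-1202411 in replicate 2, with scores of 2.05 and 1.96, ranked at percentile 81.0 and 76.0. That at 700201-709841 in replicate 1 scored 1.91, and its partner in replicate 2 scored 1.71. The others began at 874540, 1229866 and 1319843 in replicate 1. In the combined list these places include 4:1186926-1202430, with a score of 1.69, and 4:700094-709792, with 1.81, which are among its 5 highest on the chromosome. Another of those 5 was 4:541338-560426, at 1.74. The remaining pair, 4:692308-693324, with 2.44, and 4:1325724-1326724, with 1.56, were about 1 kb wide and overlapped no region of either replicate. The narrowest regions of replicates 1 and 2 were 1301 and 1302 bp wide, so neither list held any region this narrow.

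Among wide regions the Het scaffolds were not alike in score at equal width, but their order was not the same over all widths. Over all widths the median region ranked at percentile 52.1 and 35.6 on 3RHet, 50.3 and 40.2 on 2RHet, and 33.0 and 26.9 on 3LHet. On 2LHet it ranked at 82.4 and 75.5, and on XHet at 5.19 and 45.1. At 10 kb or more, the 8 regions of 2RHet in replicate 1 and the 9 in replicate 2 had median scores of 1.89 and 1.71, and those with enough large-arm regions of like width ranked between percentile 41.1 and 80.2 and between 23.2 and 82.1. The single such region of 2LHet scored 2.12 and 2.05. On 3LHet 3 of the 4 such regions scored above their large-arm median in each replicate, up to 2.29 and 2.28 at 3LHet:2241426-2271062, and the other ranked at percentile 7.69 and 3.77. In contrast the 3 and 2 such regions of 3RHet had median scores of 1.18 and 1.11 and none ranked above percentile 4.08, and the single one of XHet scored 1.44 and 1.41, at percentile 5.19 and 4.24. In the combined list, however, 3RHet also held 3RHet:1810080-1823686, with a score of 1.94, 3LHet held 3LHet:1354332-1373386, with 0.957 at percentile 0, and 2RHet held 2RHet:3223434-3237848, with 0.757 at percentile 0. With so few regions per scaffold these are values of individual regions.

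**Figure D5:**
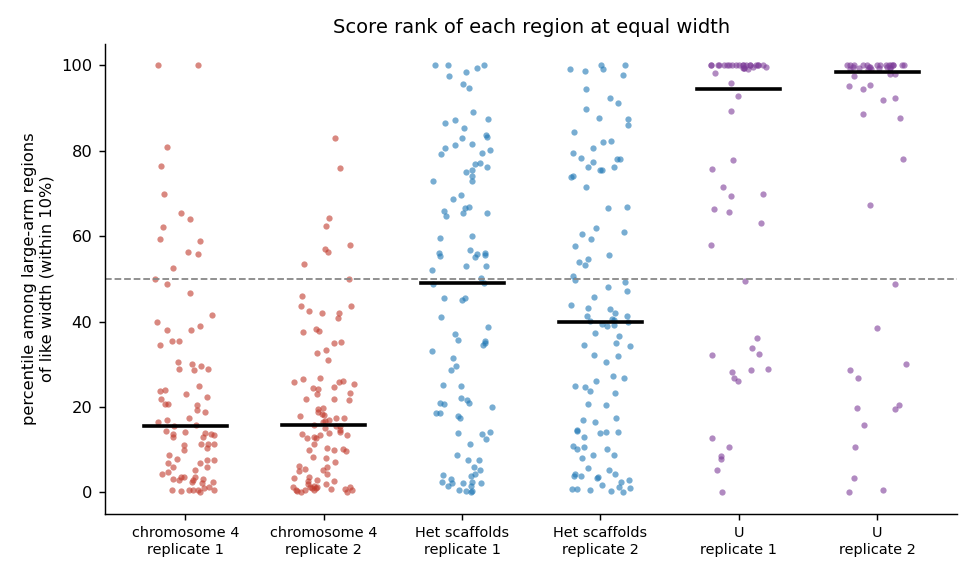
Percentile of each region's score among large-arm regions of like width (vertical axis) for chromosome 4, the Het scaffolds and U in both replicates (horizontal axis), with each point a region, the black bar the median and the dashed line the 50th percentile. Medians were 15.6 and 15.7 on chromosome 4, 48.9 and 40.0 on the Het scaffolds, and 94.4 and 98.5 on U.

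The sex-linked scaffolds are short, 0.204 Mb for XHet and 0.347 Mb for YHet, and held few regions, as did 2LHet, of 0.369 Mb, with 4 and 5. Per megabase XHet had 14.7 and 19.6 regions in replicates 1 and 2 and YHet 17.3 and 11.5. The Het scaffolds together had 11.3 and 11.9. XHet had 3 in the combined list, XHet:57562-74902, XHet:76160-83346 and XHet:84238-87940, with scores of 1.41, 1.02 and 0.546. Replicate 1 had one region over each, with scores of 1.44, 1.09 and 0.599, and replicate 2 split the middle one in 2. YHet had 7 combined regions, against 6 of replicate 1 and 4 of replicate 2. All 6 of replicate 1 and all 4 of replicate 2 scored above the large-arm median at like width, with scores of 0.873 to 1.83 and 1.27 to 1.69. The highest were 1.83 at 297244-302034 in replicate 1 and 1.69 at 297178-301710 in replicate 2.

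Regions on U were narrow and their score followed width only loosely. The Spearman correlation of score with width, across regions of a list that share their library and caller, was 0.459 over 54 regions and 0.140 over 50 on U, against 0.819 over 90 and 0.883 over 100 on chromosome 4, 0.770 over 105 and 0.767 over 110 on the Het scaffolds, and 0.790 and 0.789 on the large arms. In the combined list the correlation was 0.294 on U, 0.633 on chromosome 4, 0.692 on the Het scaffolds and 0.813 on the large arms. Widths on U spanned less, with quartiles of 1767 and 2567 bp in replicate 1 against 2887 and 8829.5 bp on the large arms. The effect of this range on the correlation was not tested. Regions under 2.5 kb made up 72.2% and 74.0% of those on U, and had median scores of 0.808 and 0.999, where the large arms had 0.568 and 0.600. U held a single region of 10 kb or more, U:1178704-1188864, with scores of 1.55 and 1.46, and the next widest were U:5766796-5770964, U:6557430-6561384, U:6889954-6893850 and U:5534854-5538716, of 3863 to 4169 bp. Highest in the combined list were U:5425442-5427790, with 2.34, which scored 2.20 in replicate 1 and was absent from replicate 2, and U:7606038-7609652, with 2.23, which scored 2.55 and 2.02. The highest score of any member in a replicate list, 3.34, was that of U:2919165-2920480 in replicate 2, which is named for that reason and had no partner in replicate 1. Next in the combined list came U:870780-872302 and U:6517760-6518760, in neither replicate, and U:6325636-6329144, at 1.85 and 2.01. Of these, U:6517760-6518760 was 1001 bp wide, narrower than any region of a replicate list. Repeated score values were common on U, where 9 of 54 regions of replicate 1 and 10 of 50 of replicate 2 shared their exact score with another region of the list, against 143 of 3884 and 222 of 3971 on the large arms. The part of these repeated values in the high ranks of U was not tested.

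By an overlap of at least 1 base, replicates shared a larger part of the regions on chromosome 4 than on the Het scaffolds and U. Chromosome 4 was also more covered than both, and how many overlaps its coverage alone would give was not tested. Of the bases in regions of either replicate, the fraction in both was 0.871 on chromosome 4 and 0.860 on the Het scaffolds. It was 0.640 on U and 0.939 on the large arms. With an overlap of at least 50% of both regions, chromosome 4 was no longer above the Het scaffolds, at 84.4% of replicate 1 and 76.0% of replicate 2 regions against 84.8% and 80.9%. By that measure U had 74.1% and 80.0%, and the large arms were above all of these, at 92.2% and 90.2%. Of the replicate 1 regions, 84 of 90 on chromosome 4 overlapped a replicate 2 region by at least 1 base, which is 93.3% (Wilson 95% interval 86.2 to 96.9), against 92 of 105, or 87.6% (80.0 to 92.6), on the Het scaffolds and 41 of 54, or 75.9% (63.1 to 85.4), on U. In the other direction the counts were 99 of 100, or 99.0% (94.6 to 99.8), 100 of 110, or 90.9% (84.1 to 94.99), and 41 of 50, or 82.0% (69.2 to 90.2). On the large arms 95.5% and 97.8% overlapped. The intervals hold for independent regions, which neighbours need not be, and those of chromosome 4 and the Het scaffolds overlap in both directions. Replicate 1 regions without a partner were narrow, with median widths of 1606 bp on chromosome 4, 1620 bp on the Het scaffolds and 1626 bp on U.

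Replicate 2 divided regions more often than replicate 1 on chromosome 4, the Het scaffolds and the large arms. On chromosome 4, 12 of 90 replicate 1 regions met more than 1 replicate 2 region, and none of the 100 replicate 2 regions met more than 1 of replicate 1. The breaks within them were 9 to 1150 bp long. On the Het scaffolds the counts were 9 of 105 and 1 of 110, and on the large arms 292 of 3884 and 129 of 3971. Among the 72 pairs of chromosome 4 regions that matched one to one, the region was wider in replicate 1 in 54, its score was higher in replicate 1 in 48, and boundaries differed by a median of 126.5 bp. Among the 81 Het pairs the counts were 49 and 52 with a median shift of 118.5 bp, and among the 41 pairs of U they were 23 and 20 with 103 bp. Among the 3211 pairs of the large arms, 2234 were wider and 1904 were higher in score in replicate 1, with a median shift of 80 bp. Across regions of the same 2 libraries, scores of the pairs correlated at a Pearson r of 0.970 on chromosome 4 and 0.966 on the Het scaffolds. The r was 0.911 on U and 0.980 on the large arms.

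Regions that the other replicate lacked numbered 6 of 90 in replicate 1 and 1 of 100 in replicate 2 on chromosome 4. On the large arms they numbered 175 of 3884 and 87 of 3971. The highest scores among the 6 of replicate 1 on chromosome 4 were 0.898 at 4:1344630-1346031 and 0.869 at 4:1331602-1333050. Both were named after their values were seen. The widest were 4:933044-935735, 4:25496-27306 and 4:198379-200141 in replicate 1, with scores of 0.784, 0.508 and 0.494, and 4:189149-190908, the single one of replicate 2, with 0.486. On the Het scaffolds they were 2RHet:828312-830591, 3LHet:1354257-1356328 and YHet:319411-321428 in replicate 1, with scores of 0.877, 0.537 and 0.945. In replicate 2 they were 2LHet:593-3345, 3LHet:2432192-2434784 and 2RHet:314891-316514, with 1.56, 1.49 and 0.581. Over all such regions on chromosome 4 the median score was 0.646 over 6 of replicate 1 and 0.486 for the single one of replicate 2. It was 0.555 over 13 and 0.545 over 10 on the Het scaffolds. The large arms had 0.517 over 175 and 0.557 over 87, and U had 0.768 over 13 and 1.06 over 9. The widest of these on U were U:5767334-5770556, U:5425601-5427771 and U:5511836-5513945 in replicate 1, and U:9244956-9247032, U:7220811-7222626 and U:7542351-7544155 in replicate 2. The combined list added regions of its own, of which 15 of 104 on chromosome 4 lay in neither replicate, against 23 of 127 on the Het scaffolds, 29 of 90 on U and 281 of 3990 on the large arms. Their median widths were 1233 bp on chromosome 4, 1503 bp on the Het scaffolds and 1193 bp on U. The narrowest region was 1001 bp wide in the combined list but 1301 and 1302 bp in replicates 1 and 2. Some of the added regions were therefore narrower than any replicate region. The effect of this unlike lower limit on the counts was not tested. No annotation of the genome release of these files was used here, so the genes at these positions are not named.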

How the data were processed

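H3K36me2 ChIP-seq region lists of 2 ChIP samples and the authors' combined list were analysed, in GFF3 form on FlyBase release 5, per the file headers. Reads were aligned with Bowtie 0.12.7, per the submitters' processing notes. The region caller, its threshold, the scale of the deposited score and its normalization to input, and how replicates were combined remain not given in the sources used here. Because the lists hold no read counts, depth is unknown and its effect on precision cannot be stated. Regions, gaps (bases between neighbouring regions of a sequence) and coverage (bases in regions over the header length) were computed from the deposited start and end positions, 1-based. The deposited score was compared only within a list, apart from pairs of replicates set side by side. Coverage, spacing, joining, position and overlap were described per replicate with mean and SD, and the combined list was taken as the authors' value. No test was run across regions. The members and lists were chosen with earlier results of these data known. Regions named by rule were, in the combined list for each group, the 5 widest, the 5 highest in score, the 3 longest gaps and the 3 widest domains joined at 1 kb, every region of a sequence with 5 or fewer, and in each replicate the 3 widest that the other lacks. The joining distances above 5 kb, the 10 kb limit for isolated regions and the ranks at like width were chosen after seeing the data. The functions were tested on simulated data. Release 6 gene positions were not used, because coordinates were not converted. Python 3.11.15, numpy 2.4.6, pandas 2.3.3, scipy 1.17.1 and matplotlib 3.10.9 were used.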

Additional observations from a re-analysis of the deposited data

How the results depend on the processing

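Under the alternatives given here no score difference at equal width, taken over all widths, changed sign. The ratios of gap, width and coverage stayed on the same side of 1. In the class under 2.5 kb alone, the combined list gave 0.0260 for chromosome 4 minus large arms. For Het scaffolds minus large arms it gave 0.00248 there, and both were negative in each replicate. Without matching on width the signs do turn, since U minus large arms averaged -0.344 and chromosome 4 minus Het scaffolds was 0.00851 in replicate 1, -0.114 in replicate 2 and 0.00404 in the combined list. The values below are means of both replicates unless a list is named, and the cause of a change was not tested except where the alternative itself uses fewer regions or another joining distance. The ratio of median gaps, chromosome 4 over Het scaffolds, was 0.497 (0.428 and 0.566 with a replicate left out), 0.389 among regions shared by both replicates, 0.824 without the lowest-scoring 25% of each list and 0.140 for mean gaps. The width ratio was 1.25 (1.10 to 1.41 with a replicate left out). The coverage ratio was 5.80 (5.63 to 5.96), 5.38 without the lowest 25% and 4.45 over the span of regions. Chromosome 4 minus Het scaffolds in score at equal width was -0.143 (-0.150 to -0.136), -0.115 in the combined list, -0.227 without the lowest 25%, -0.194 with 8 width classes, -0.182 from a line on log2 width and -0.236 against large-arm regions within 10% of the width, an alternative chosen after seeing the data. Chromosome 4 minus large arms was -0.280 (-0.282 to -0.278), and under the same alternatives -0.269, -0.347, -0.297, -0.241 and -0.272, with -0.291 among shared regions. Het scaffolds minus large arms was -0.107 (-0.131 to -0.0823), then -0.0552 without the lowest 25%, -0.0696 with 8 classes, -0.0594 from the line and -0.0364 within 10% of the width, so its size depends on how width is matched. U minus large arms was 0.270 (0.180 to 0.360). Regions per domain were 1.29 on chromosome 4 (1.27 to 1.32) and 1.24 on the Het scaffolds (1.19 to 1.28). They were 1.16 and 1.09 without the lowest 25%, 1.16 and 1.17 joined under 0.5 kb, 1.73 and 1.41 under 2 kb, and 2.93 and 1.86 under 5 kb, so chromosome 4 was no longer above the Het scaffolds at 0.5 kb, with 1.42 on chromosome 4 in the combined list. The lower-coordinate 50% of the length held 55.4% of covered bases on chromosome 4 (55.0% to 55.8%) and 31.4% on the Het scaffolds (30.8% to 32.1%). These were 53.4% and 32.6% in the combined list, 60.5% and 28.4% without the lowest 25%, and 51.0% and 40.0% by region centres. The overlap of replicates, averaged over both directions, was 96.2% on chromosome 4, 89.3% on the Het scaffolds and 79.0% on U. It was 80.2% and 82.8% on chromosome 4 and the Het scaffolds when 50% of both regions had to overlap, 89.7%, 83.5% and 67.8% without the lowest 25%, and 82.2%, 73.6% and 56.7% for combined regions. The order of chromosome 4 and the Het scaffolds thus turned round under that stricter overlap. Leaving out a replicate gives no overlap value, since it needs both. No paired analysis was possible because the results come from no test, and each difference is already taken within a replicate. The lists carry no read depth, and mappable length of the Het scaffolds and U was not measured.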
